A study of Mus musculus with 56 samples.

Results

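This report follows 10 genes that build fatty acids in the liver, 8 enzymes and enzyme regulators (Thrsp, Fasn, Acaca, Acacb, Acly, Me1, Scd1 and Elovl6) and the transcription factors Srebf1 and Mlxipl. They were taken by symbol from a table of RNA levels in mouse liver, where they are 10 of 23813 genes, and the first listed transcript stood for each gene. RNA had been sequenced from 12 livers of male mice, 4 in each of 3 groups. Hypothyroid WT mice (PTU) ate a low iodine diet with 0.15% propylthiouracil, a drug that blocks thyroid hormone synthesis, for 16 days and were injected with vehicle. Hyperthyroid WT mice (PTU+T3) had this diet too, and over the last 4 to 6 days were given 5 μg of the active hormone triiodothyronine (T3) by injection. Hypothyroid L-NCORdeltaID mice (L-NCOR1ΔID) were treated as the first group but carried, in the liver, a form of the corepressor NCOR1 that lacks 2 domains through which it binds the thyroid hormone receptor. The paper proposes that these domains may also bring NCOR1 to regulators other than this receptor. The mutants were kept on a mixed strain background. Over all mice of the study they were on average younger than the WT mice. No group combined the mutation with T3. The diet was given ad libitum, but feeding state and time of day at sacrifice were not given in the sources used here.

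De novo lipogenesis turns citrate from glucose into fatty acids. ATP citrate lyase (Acly) releases acetyl-CoA, acetyl-CoA carboxylase (Acaca and Acacb) makes malonyl-CoA, and fatty acid synthase (Fasn) joins these units into palmitate with NADPH that malic enzyme (Me1) helps to supply. Elovl6 lengthens palmitate, and the desaturase Scd1 makes the monounsaturated fatty acids stored in triglyceride. SREBP-1 (Srebf1) carries the insulin signal and ChREBP (Mlxipl) the glucose signal to these genes in hepatocytes, and thyroid hormone is a classical inducer of several of them. Thrsp, also called Spot 14, is a small nuclear and cytosolic protein that promotes lipogenesis and was first described as a thyroid hormone response gene. In the classical model the receptor without hormone holds corepressors such as NCOR1 at target genes. The paper found high NCOR1 at only a part of the receptor sites in T3-responsive regions of hypothyroid livers.

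RPKM, the unit of every level below, is the number of reads per kilobase of transcript, scaled to a fixed number of uniquely aligned reads per library. Relative sequencing depth, read from the steps between low values, lay between 0.681 and 1.364 times that of hypothyroid WT replicate 1. The 10 genes were at 4.77 RPKM or more in every library, and their counting error was not estimated, since absolute read numbers were not used. Dio1, the deiodinase gene used here to check the hormone labels, lay between 459 and 641 RPKM in hyperthyroid mice, between 0.719 and 57.7 in hypothyroid WT mice and between 0.567 and 20.9 in L-NCOR1ΔID mice. Ncor1 lay between 12.1 and 18.5 RPKM in all libraries, which is no check of the genotype because the mutation removes only part of the transcript. The 6 hepatocyte marker genes summed to between 37346 and 48896 RPKM in hypothyroid WT, 18949 and 27209 in hyperthyroid and 31495 and 34572 in mutant mice. Every hyperthyroid library lay below the hypothyroid WT range in Alb, Ttr and Cps1 and above it in Hnf4a, while Apob and Apoa1 overlapped. Alb (log2 fold change -1.158) and Ttr (-1.555) fell most. Every mutant library lay below that range in Alb and Apob, and the other markers overlapped. Nothing in the labels ties libraries to separate cultures or litters, and all libraries combine runs of the same pair of sequencing instruments. In bulk liver, fewer cells of a type and less RNA per cell cannot be told apart.

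The first comparison asked how T3 changed lipogenic RNA in hypothyroid WT mice. A gene was called when limma on log2(RPKM + 0.1) gave an adjusted p under 0.01 and its log2 fold change exceeded 1 in either direction. Of the 10 genes, 4 were called higher and 0 lower, against 8.28% of 13941 tested genes called higher and 3.47% called lower. At an unadjusted p under 0.05, 5 were higher and 3 (Acly, Scd1 and Srebf1) lower, as were 42.9% and 13.6% of tested genes. In 4 of the 10 (the same 4) every hyperthyroid library lay above every hypothyroid WT library, which held for 35.8% of tested genes, and in Acly and Scd1 every one lay below, which held for 10.8%. The fold changes ran in both directions along the pathway. The median log2 fold change of the 10 was 0.61, while that of all tested genes was 0.23. When each library was scaled by its median gene ratio, the median of all genes was 0.04 and 804 genes were called higher and 641 lower in place of 1155 and 484. Of the 10 genes, Thrsp (2.09) and Me1 (2.32) were then called higher and Acly (-1.01) lower, while Acacb (0.97) and Mlxipl (0.91) stayed under the fold threshold.

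Me1 showed the largest rise of the set. Its RPKM was 15.01, 29.4, 34.1 and 18.8 in replicates 1 to 4 of the hypothyroid WT group and 152, 108, 129.6 and 146 in the hyperthyroid group. The lowest hyperthyroid value stood well clear of the highest hypothyroid one. The mean rose from 24.3 ± 8.92 to 134 ± 19.9 (SD, n = 4 each), a log2 fold change of 2.52 ± 0.245 (SE, limma adjusted p = 7.22e-05).

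Thrsp followed. Its RPKM was 209, 490.0, 352 and 237 in hypothyroid WT mice and 2359.6, 1336, 847 and 1844 in hyperthyroid mice. All 4 hyperthyroid livers exceeded all 4 hypothyroid ones, although the hyperthyroid livers differed among themselves by 2.79 times. The log2 fold change was 2.29 ± 0.352 (SE, limma adjusted p = 0.000813), and Thrsp moved from rank 158 to rank 24 of all genes by mean RPKM.

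Mlxipl, the ChREBP gene, rose from 64.3, 94.5, 87.2 and 72.2 RPKM to 193, 165, 166 and 161. The hyperthyroid values were tightly grouped and far above the others. On the log2 scale it rose by 1.12 ± 0.125 (SE, limma adjusted p = 0.00015). Acacb, which makes the malonyl-CoA that restrains fatty acid oxidation at mitochondria, rose from 6.78, 11.1, 10.7 and 10.8 RPKM to 33.3, 20.8, 14.1 and 23.9. Here the groups did not overlap, but the third hyperthyroid liver came close to the hypothyroid range. Its log2 fold change was 1.18 ± 0.253 (SE, limma adjusted p = 0.00453), near both thresholds, and the call was lost without hypothyroid WT replicate 1 or 4 or without hyperthyroid replicate 1 or 4.

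Scd1 and Acly lay on the other side. Scd1 RPKM was 977, 1046, 828 and 881 in hypothyroid WT mice and 654, 179.7, 181 and 720.2 in hyperthyroid mice. Every hyperthyroid value was below every hypothyroid one, and the hyperthyroid livers fell into a lower and a higher pair. Its log2 fold change was -1.40 ± 0.461 (SE, limma adjusted p = 0.0311), which did not pass the threshold. Acly RPKM was 111, 112, 102 and 139 against 98.8, 47.5, 51.8 and 76.9, again without overlap but with the first hyperthyroid liver just under the hypothyroid range. Its log2 fold change of -0.81 ± 0.22 (SE, limma adjusted p = 0.0142) passed neither threshold. Without hyperthyroid replicate 1 Acly was called lower, at -1.002 (limma adjusted p = 0.00244).

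The synthase itself was not called. Fasn RPKM was 49.8, 112, 64.8 and 69.0 in hypothyroid WT mice and 244, 83.4, 78.5 and 138 in hyperthyroid mice. The groups overlapped, with 1 hyperthyroid liver far above the rest. Its log2 fold change was 0.79 ± 0.369 (SE, limma adjusted p = 0.104). Acaca, the carboxylase that supplies malonyl-CoA for synthesis, had 5.46, 5.31, 4.77 and 6.13 RPKM against 8.55, 5.66, 7.86 and 7.72, with the second hyperthyroid liver inside the hypothyroid range. The fitted log2 fold change was 0.44 ± 0.135 (SE, limma adjusted p = 0.0233). Both genes therefore stayed outside the thresholds while their group means differed.

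Elovl6 had 44.1, 46.9, 30.7 and 43.1 RPKM in hypothyroid WT mice and 45.1, 32.4, 34.5 and 37.5 after T3, largely overlapping ranges (log2 fold change -0.13 ± 0.148, SE, limma adjusted p = 0.481). Srebf1 had 50.7, 98.1, 70.6 and 64.8 RPKM against 72.2, 35.7, 29.97 and 44.9. Only the first hyperthyroid liver reached the middle of the hypothyroid range. Its log2 fold change was -0.68 ± 0.277 (SE, limma adjusted p = 0.0686). The row for Srebf1 does not separate the SREBP-1a and SREBP-1c transcripts. Scd1 lies beside closely related Scd genes, and how reads that fit several of them were counted is not given in the sources used here.

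**Figure D1:**
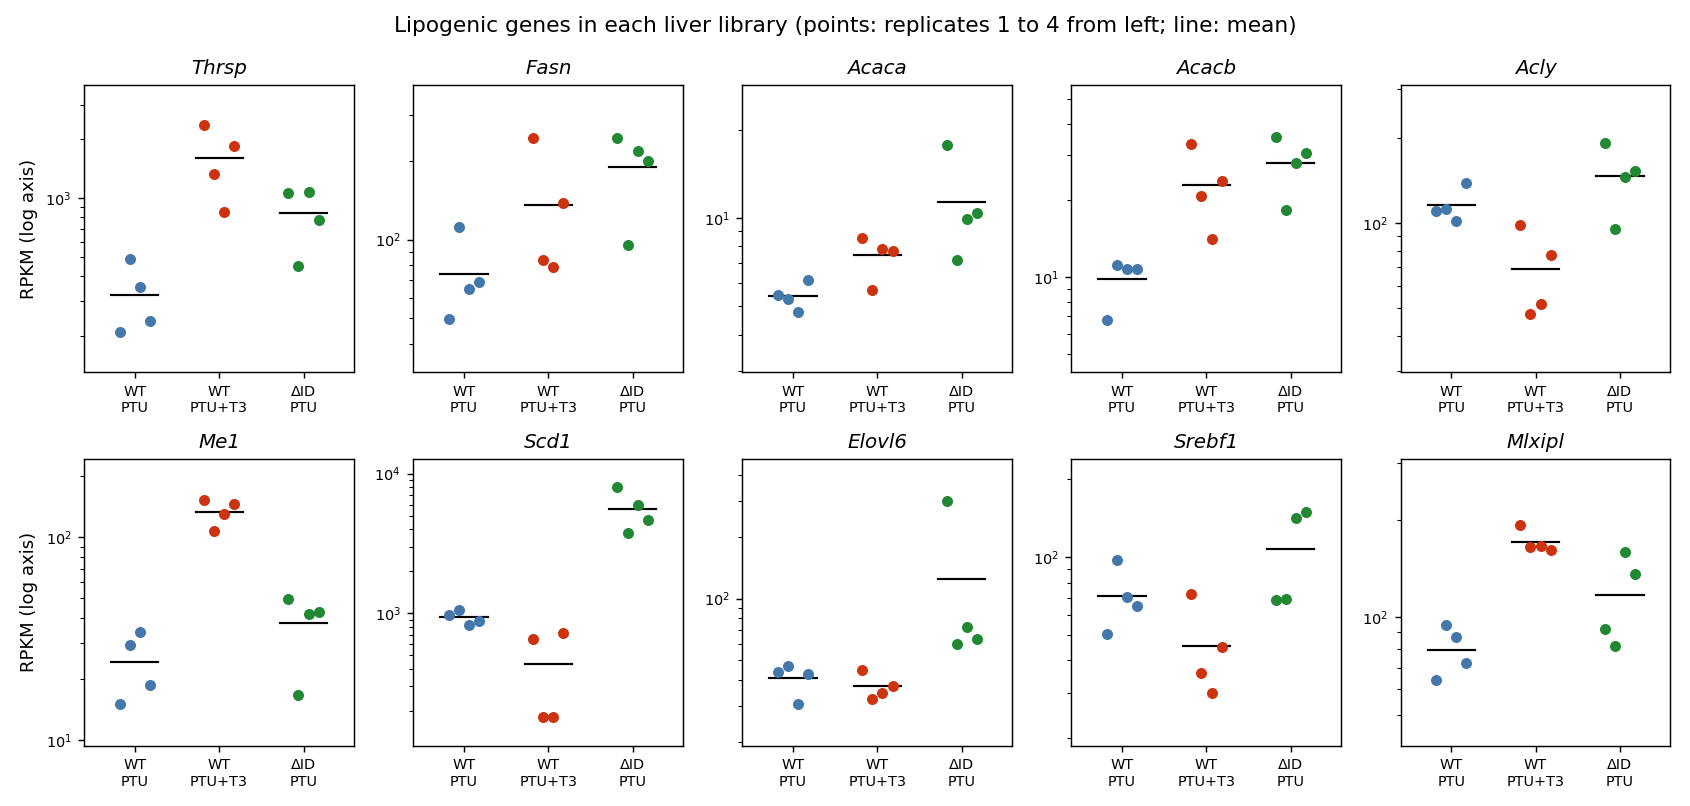
Level of each gene in RPKM on a log axis, by group, with 1 point per liver library and a line at the group mean. Me1, Thrsp and Mlxipl separated the hyperthyroid from the hypothyroid WT group, while the highest Scd1 levels, from 3745 RPKM up, were those of the L-NCOR1ΔID livers.

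The second comparison asked what the NCOR1 mutation did to these genes without hormone. It shares the hypothyroid WT libraries with the first comparison, so the results of the 2 are not independent. Here called means an adjusted p under 0.01 at any fold, in either direction, where the study's rule for the mutant names higher genes. Of the 10 genes 2 were called higher (Scd1 and Acacb) and 0 lower, against 0.725% of 13790 tested genes called higher and 0.544% called lower. At an unadjusted p under 0.05, 7 were higher and 0 lower, where 12.8% and 7.77% of tested genes were. All 10 had a log2 fold change above 0, as had 55.7% of tested genes, and the median of the 10 was 1.10 against 0.03 over all tested genes. In 4 genes (Acaca, Acacb, Scd1 and Elovl6) every mutant library lay above every hypothyroid WT library, which held for 7.78% of tested genes, and in 0 below, which held for 5.36%.

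Scd1 showed the largest difference. The mutant livers had 8000.2, 3745, 6006 and 4669 RPKM, where the WT livers, given above, had at most 1046. All 4 mutant livers stood more than 3 times above any hypothyroid WT liver. The log2 fold change was 2.54 ± 0.231 (SE, limma adjusted p = 0.000693), or 5.79-fold. With a mean of 5605 ± 1847 RPKM (SD, n = 4), Scd1 was the gene of rank 4 in the mutant livers by mean level, from rank 53 in the WT.

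Acacb had 35.5, 18.4, 28.1 and 30.6 RPKM in the mutant livers. Even the lowest of these, in replicate 2, was above the highest WT value. On the log2 scale the difference was 1.49 ± 0.221 (SE, limma adjusted p = 0.00791). Leaving out 1 library at a time ended the call in 7 of 8 fits, in all but the one without mutant replicate 2, and without mutant replicate 3 the limma adjusted p was 0.0255.

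Elovl6 had 300.4, 59.9, 73.0 and 63.6 RPKM in the mutant livers. Replicate 1 alone was far above the others, and all 4 exceeded the WT livers. On the log2 scale the difference was 1.23 ± 0.467 (SE, limma adjusted p = 0.179), and without that replicate it was 0.68. Acaca had 17.8, 7.19, 9.94 and 10.4 RPKM, again highest in replicate 1 and again without overlap with the WT group. On the log2 scale it differed by 0.98 ± 0.234 (SE, limma adjusted p = 0.0527).

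Thrsp had 1059.6, 454, 1081 and 779 RPKM and Fasn 244, 95.1, 218 and 199.7 RPKM in the mutant livers. In both genes 3 mutant livers were above all WT livers and replicate 2 was inside the WT range. The log2 fold changes were 1.39 ± 0.337 for Thrsp and 1.33 ± 0.324 for Fasn (SE, limma adjusted p = 0.0542 and 0.0546), close to each other and outside the threshold.

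The remaining genes overlapped with the WT group. Me1 had 49.8, 16.8, 41.96 and 42.6 RPKM (log2 fold change 0.60 ± 0.37, SE, limma adjusted p = 0.4), and Acly had 193, 95.5, 145 and 154 RPKM (0.31 ± 0.197, SE, limma adjusted p = 0.418). Srebf1 had 68.6, 69.0, 143 and 150.4 RPKM, with replicates 3 and 4 above every WT liver and replicates 1 and 2 within the WT range (0.54 ± 0.306, SE, limma adjusted p = 0.36). Mlxipl split the same way, at 92.1, 81.8, 159 and 136 RPKM (0.52 ± 0.218, SE, limma adjusted p = 0.218). The 2 transcription factor genes thus had their higher values in other mutant livers than Elovl6 and Acaca, which were highest in replicate 1.

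The third comparison set hyperthyroid WT mice directly against hypothyroid L-NCOR1ΔID mice, which differ in both hormone and genotype, with the thresholds of the first comparison. Me1 was called higher and Scd1 lower. The shares of 14017 tested genes called were 5.52% higher and 3.00% lower (774 and 421 genes, or 542 and 558 after scaling by median gene ratios). Me1 differed by 1.92 ± 0.309 on the log2 scale (SE, limma adjusted p = 0.00165), since the lowest hyperthyroid value, 108 RPKM, was above the highest mutant value, 49.8. Scd1 differed by -3.94 ± 0.509 (SE, limma adjusted p = 0.000549), the largest difference of any of the 10 genes in any of the 3 comparisons. The highest hyperthyroid Scd1 level, 720.2 RPKM, was far below the lowest mutant level, 3745.

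In the other 8 genes the direct difference did not pass. Mlxipl was above the mutant range in every hyperthyroid liver (0.59 ± 0.202, SE, limma adjusted p = 0.044) and Elovl6 below it in every one (-1.36 ± 0.46, SE, limma adjusted p = 0.0427). With Me1 and Scd1 this made 2 genes entirely above and 2 entirely below, where 28.7% and 9.57% of tested genes were. Acly (-1.11 ± 0.271, SE, limma adjusted p = 0.0115) and Srebf1 (-1.22 ± 0.344, SE, limma adjusted p = 0.0214) were lower in the hyperthyroid group on average with overlapping ranges. Thrsp (0.90 ± 0.372, SE, limma adjusted p = 0.084), Acacb (-0.31 ± 0.271, SE, limma adjusted p = 0.384), Acaca (-0.54 ± 0.25, SE, limma adjusted p = 0.12) and Fasn (-0.55 ± 0.403, SE, limma adjusted p = 0.305) could not be separated between the groups with these libraries, which does not show that their levels were alike.

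**Figure D2:**
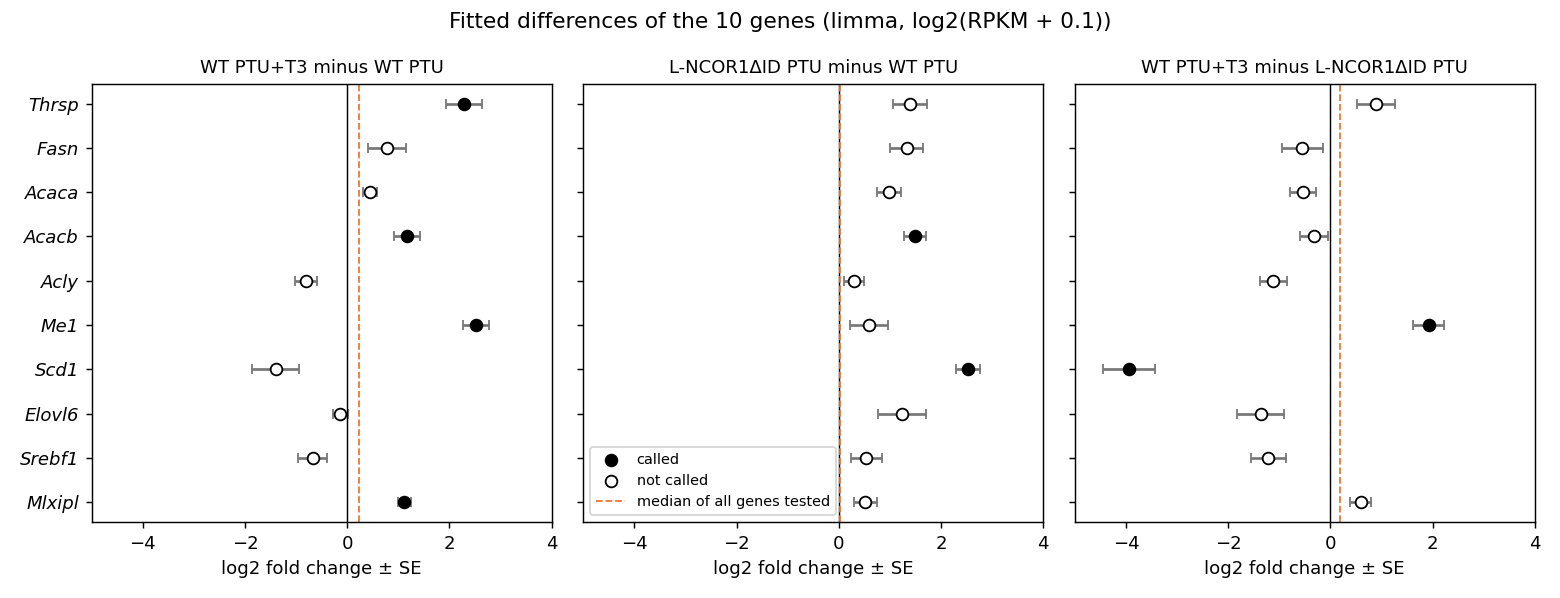
Log2 fold change of each gene with its standard error in the 3 comparisons, from limma on log2(RPKM + 0.1), with filled points for called genes and a dashed line at the median of all genes tested. Me1 was called higher with T3 against both hypothyroid groups, and Scd1 was at 2.54 in the mutant against WT and at -3.94 in hyperthyroid against mutant mice.

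Ratios of 2 genes within a library, chosen after their values were seen, are given with no test. Mlxipl to Srebf1, both per length, stood between 0.963 and 1.27 in hypothyroid WT mice, between 2.67 and 5.54 in hyperthyroid mice and between 0.904 and 1.34 in L-NCOR1ΔID mice. Scd1 to Thrsp stood between 2.14 and 4.68, between 0.135 and 0.39, and between 5.55 and 8.25 in the same order. The 3 groups did not overlap in the second ratio. Thrsp to Fasn stood between 3.43 and 5.43 in hypothyroid WT mice and between 3.90 and 4.97 in the mutant mice, but between 9.67 and 16.02 in hyperthyroid mice. Acacb to Acaca overlapped between all 3 groups, at 1.24 to 2.24 in hypothyroid WT, 1.80 to 3.89 in hyperthyroid and 2.00 to 2.95 in mutant mice.

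The mice of a group differed more in these genes than in most others. Taking the standard deviation of log2(RPKM + 0.1) between the 4 libraries of a group, the median of the 10 genes was 0.31 in hypothyroid WT, 0.50 in hyperthyroid WT and 0.56 in L-NCOR1ΔID mice. The median over all genes with a mean of at least 1 RPKM was 0.13, 0.17 and 0.18. Thus 89.0%, 93.5% and 93.5% of those genes varied less than the median lipogenic gene, as a description with no test. In the hyperthyroid group Mlxipl, at 0.12, lay below the median of all genes, while Scd1 there and Elovl6 in the mutant group reached 1.1.

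The same livers tended to be high or low across genes. In the hyperthyroid group, replicate 1 was the highest library in 9 of the 10 genes, and replicates 2 and 3 together were the lowest in 9. In the mutant group, replicate 1 was the highest in 7 and replicate 2 the lowest in 9. In the hypothyroid WT group, replicate 2 was the highest in 7 and replicate 1 the lowest in 6.

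Of 7 genes that respond to feeding and fasting, 5 (Fgf21, Igfbp1, Pdk4, Cpt1a and Irs2) had their highest hyperthyroid levels in replicates 2 and 3, and 1 (Ppargc1a) had its lowest levels there, as a description with no test. Fgf21, a hepatic hormone that rises on fasting, had 8.80, 75.8, 122 and 15.2 RPKM in hyperthyroid replicates 1 to 4, and Igfbp1, which insulin lowers, had 98.8, 409, 132 and 59.3. Replicates 2 and 3 were the livers with the lowest Scd1, Acly, Srebf1 and Fasn. This pair was picked with that order known, and the share of all genes highest or lowest in it was not counted. Ppargc1a, a coactivator that fasting induces, had 1.74, 1.13, 1.15 and 1.59 RPKM, and Pck1, of gluconeogenesis, had 641, 1136, 838 and 1042, highest in replicates 2 and 4. Of the 7 genes, Igfbp1 (log2 fold change 3.39, limma adjusted p = 0.00723) and Pdk4, which spares glucose from oxidation (1.70, limma adjusted p = 0.00674), were called higher after T3 and 0 lower. Over all tested genes 8.28% were called higher and 3.47% lower. At an unadjusted p under 0.05, 3 of the 7 were higher and 1 (Ppargc1a) lower, against 42.9% and 13.6% of tested genes. In the mutant 0 of 7 were called by limma in either direction. There 1 was higher (Pdk4) and 1 lower (Fgf21) at an unadjusted p under 0.05, against 12.8% and 7.77% of tested genes. Fgf21 had at most 0.364 RPKM there, and in hyperthyroid against mutant mice Fgf21 was called higher (6.78, limma adjusted p = 0.000265). The part of feeding state in the lipogenic results was not tested.

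Clock genes and markers of other cells also moved. Of 10 clock genes 9 passed the filter with T3. Of these, 2 were called higher and 3 lower, against 8.28% and 3.47% of tested genes. Arntl (log2 fold change 2.01, limma adjusted p = 0.000518) and Clock (1.40, limma adjusted p = 0.000173) were higher. Per1 (-1.17, limma adjusted p = 3.94e-05), Dbp and Per2 were lower. In the mutant Arntl was called higher (1.87, limma adjusted p = 0.00727), as were 0.725% of tested genes. In hyperthyroid against mutant mice Per1 and Dbp were called lower, as were 3.00% of tested genes. Of the 5 macrophage markers in the table all 5 were called higher after T3, as were 8.28% of tested genes. They summed to between 117 and 197 RPKM there, against 35.6 to 50.1 in hypothyroid WT and 42.4 to 115 in mutant mice. Of the 6 fat cell markers, Lep was at most 0.098, Plin1 at most 0.622, Retn at most 1.06, Adipoq at most 1.13 and Cfd at most 2.54 RPKM in all 12 libraries, and each of these was at 0 in at least 1. Fabp4 lay between 4.61 and 7.18 RPKM in hypothyroid WT, between 5.93 and 17.99 in hyperthyroid and between 6.89 and 15.2 in mutant mice, and it was higher in both groups than in hypothyroid WT mice at an unadjusted p under 0.05. Together the 6 summed to between 4.61 and 9.91, 6.30 and 21.5, and 6.89 and 17.9 RPKM in the 3 groups in that order. In the mutant 0 markers of other cells were called by limma. At an unadjusted p under 0.05, Fabp4, Marco and Cd5l (macrophages), Lyve1 (endothelium) and Col1a1, Col3a1 and Lrat (stellate cells) were higher. Cd3e (lymphocytes) was lower at that level, and over all tested genes 12.8% were higher and 7.77% lower. Col1a1 (6.08 RPKM) and Col3a1 (15.6 RPKM) were highest in mutant replicate 1, the liver with the highest Elovl6 and Acaca. The part of clock phase and of these other cells in the lipogenic results was not tested.

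**Figure D3:**
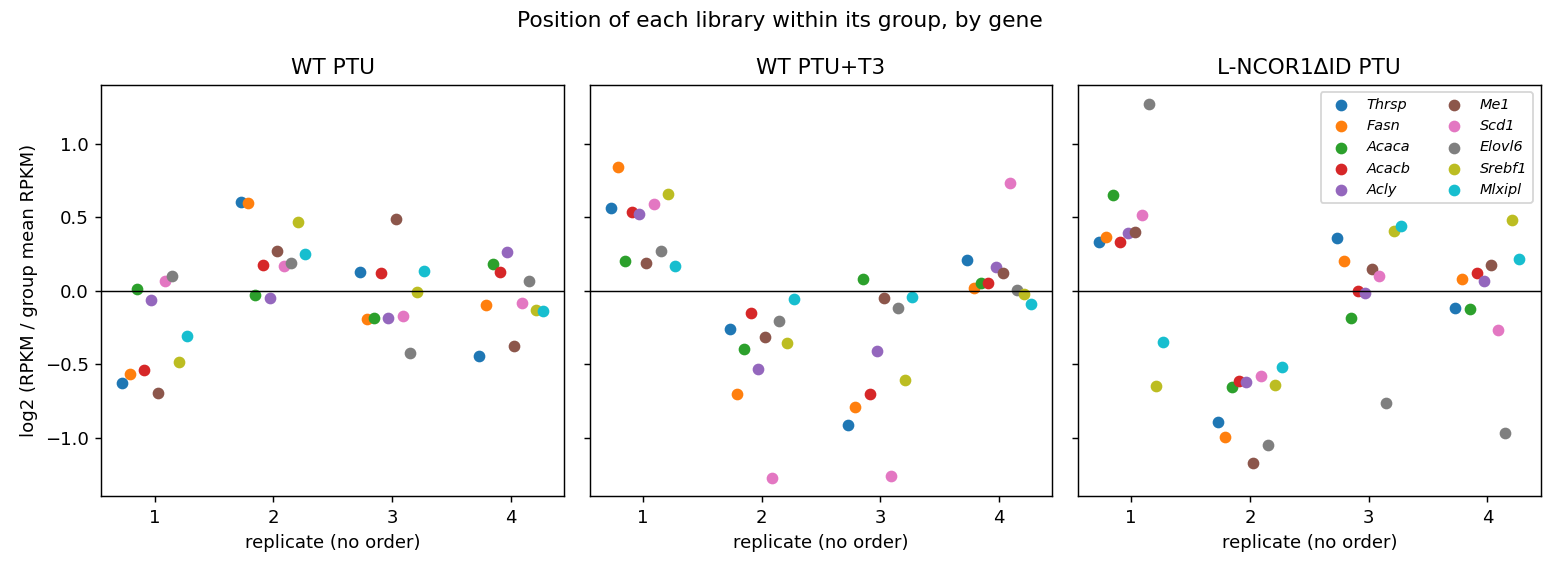
Log2 ratio of each gene's RPKM in a library to the mean of its group, by replicate number, which has no order, with 1 point per gene. All 10 genes of hyperthyroid replicate 1 lie above 0 and those of replicate 2 below, and in the mutant group the genes of replicate 2 lie below 0.

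Genes that feed the pathway were described from 3 further lists. Of 9 genes for precursor and NADPH supply, 1 was called higher after T3 and 0 lower, against 8.28% and 3.47% of tested genes. At an unadjusted p under 0.05, 3 were higher and 2 lower, against 42.9% and 13.6% of tested genes. G6pdx, the first enzyme of the pentose phosphate pathway, had 1.38, 1.37, 1.603 and 1.34 RPKM in hypothyroid WT, 5.12, 3.16, 3.42 and 3.73 in hyperthyroid and 4.01, 2.66, 4.62 and 4.13 in L-NCOR1ΔID mice. It was above the hypothyroid WT group in all 8 other livers. The log2 fold change was 1.36 ± 0.153 with T3 (SE, limma adjusted p = 0.000159) and 1.35 ± 0.167 in the mutant (SE, limma adjusted p = 0.00327), where it was the 1 gene of 9 called. Of all tested genes 0.725% were called higher in the mutant. In hyperthyroid against mutant mice 0 of the 9 were called by limma. At an unadjusted p under 0.05 there were 2 higher and 2 lower, against 35.6% and 12.8% of tested genes.

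Of 18 regulators, 2 were called higher after T3 and 0 lower, against 8.28% and 3.47% of tested genes. These were Srebf2, the SREBP of cholesterol synthesis, and Insig2, which retains SREBPs in the endoplasmic reticulum. At an unadjusted p under 0.05, 13 were higher and 0 lower, against 42.9% and 13.6% of tested genes. Srebf2 had between 7.97 and 11.4 RPKM in hypothyroid WT and between 23.5 and 25.3 in hyperthyroid mice (log2 fold change 1.33 ± 0.106, SE, limma adjusted p = 2.81e-05). Insig2 rose by 1.81 ± 0.201 (SE, limma adjusted p = 0.000144). Srebf2 and Srebf1 therefore stood in opposite directions, the second not called. In the mutant 0 of the 18 were called by limma. At an unadjusted p under 0.05, 1 was higher and 1 lower there, against 12.8% and 7.77% of tested genes. In hyperthyroid against mutant mice Srebf2 and Insig2 were called higher, as were 5.52% of tested genes. There 11 of the 18 were higher and 0 lower at an unadjusted p under 0.05, as were 35.6% and 12.8% of tested genes.

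Of 8 genes of glyceride assembly, 1 was called higher after T3 and 1 lower, against 8.28% and 3.47% of tested genes. At an unadjusted p under 0.05, 4 were higher and 1 lower, against 42.9% and 13.6% of tested genes. Pnpla3, a lipid droplet protein controlled by SREBP-1 and ChREBP, changed most. It had 0.103, 0.131, 0.147 and 0.118 RPKM in hypothyroid WT, 12.3, 13.5, 3.86 and 7.51 in hyperthyroid and 2.26, 0.536, 10.05 and 5.66 in mutant livers. No hypothyroid WT liver reached the lowest of the other 8. The log2 fold change was 5.24 ± 0.348 with T3 (SE, limma adjusted p = 1.21e-05), on a scale whose added 0.1 RPKM understates it. In the mutant it was 3.77 but did not pass (limma adjusted p = 0.0222), and 0 of the 8 were called there. At an unadjusted p under 0.05, 2 of the 8 were higher in the mutant and 0 lower, against 12.8% and 7.77% of tested genes. Lpin2, a phosphatidate phosphatase, fell after T3 (-1.01 ± 0.199, SE, limma adjusted p = 0.00297). It was also called lower in hyperthyroid than in mutant mice (-1.10 ± 0.201, SE, limma adjusted p = 0.0032), as were 3.00% of tested genes.

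**Figure D4:**
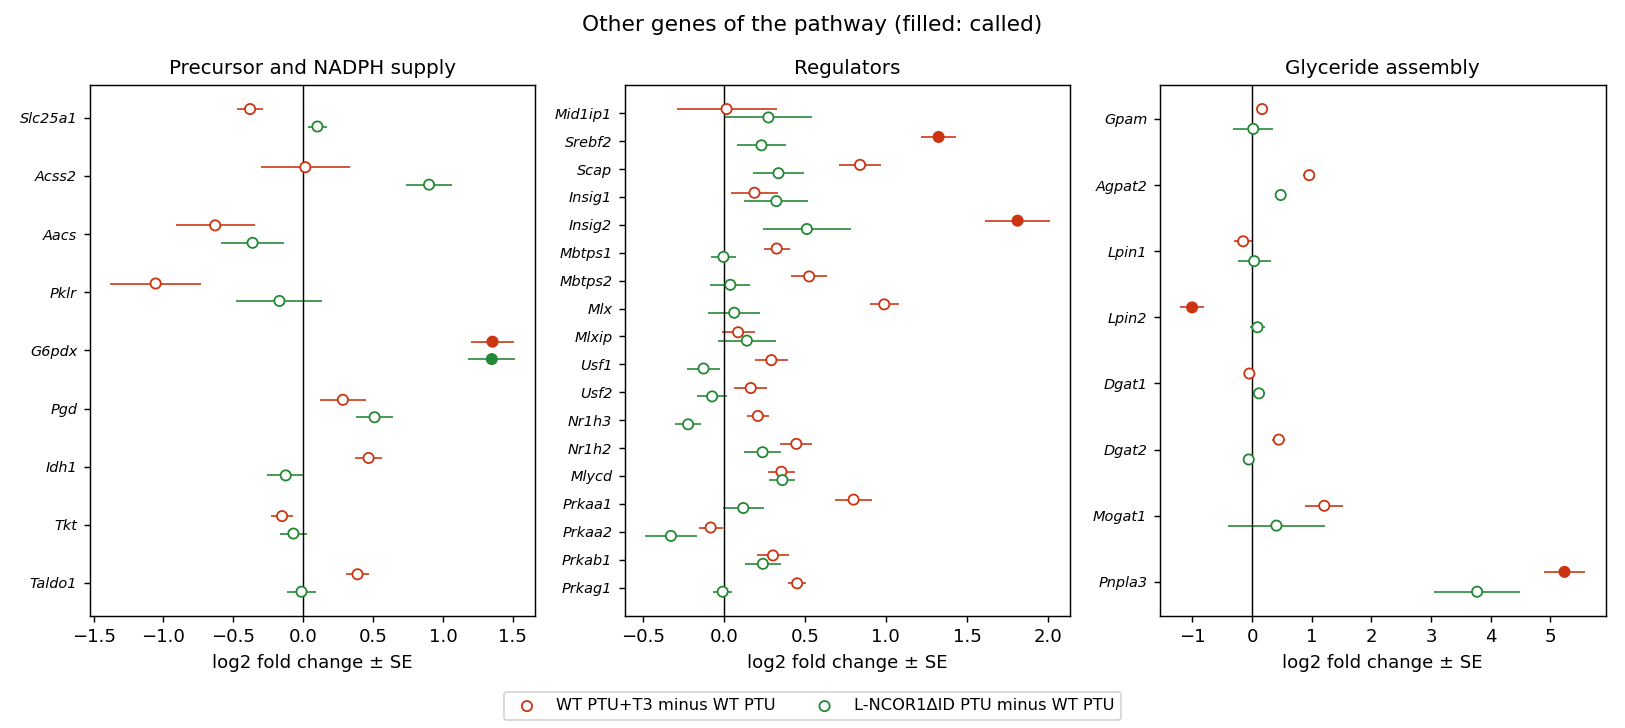
Log2 fold change with its standard error of the genes in 3 further lists, with T3 and in the mutant, both against hypothyroid WT mice, where filled points are called. G6pdx was called in both, at 1.36 and 1.35, and Pnpla3 with T3, at 5.24.

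The starts of all 10 genes annotated in GENCODE lay in acetylated chromatin. The study merged regions carrying acetylated histone H3 (H3K9Ac or H3K27Ac) in hypothyroid or hyperthyroid WT livers into 37200 domains, listed by position with no signal, so that no difference between conditions can be read from them. A domain covered the annotated start (GENCODE M1, mm9) of all 10 genes and of 54.2% of 22380 protein-coding genes. These domains were long, with a median of 15882 bp against 3797 bp for domains at the starts of protein-coding genes. Of the 10, 9 were among the longest 10% of all domains, as were 20.6% of those at protein-coding starts.

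The Scd1 domain, 24062 bp at chr19:44460284-44484345 and rank 265 by size, covered the whole gene and ran past its end. That of Thrsp was 18773 bp long and also covered its whole gene. The Mlxipl domain (chr5:135574258-135596394, 22137 bp, rank 342) reached 8503 bp upstream of the start and 13633 bp downstream. Those of Acacb (chr5:114594814-114613465) and Acly (chr11:100375264-100393683) were 18652 and 18420 bp long and lay mostly inside the gene. Shorter domains were those of Elovl6 (13343 bp, chr3:129229323-129242665), Srebf1 (10274 bp, chr11:60030106-60040379), Fasn (10034 bp, chr11:120677939-120687972) and Me1 (9885 bp, chr9:86582120-86592004). Acaca alone had a domain below the median of all domains, 2124 bp at chr11:83941961-83944084, and its promoter in RefSeq lay in another domain. Within 100 kb of the start there were between 5 domains (Scd1) and 16 (Elovl6), with a median of 12 for the 10 genes and 5 for protein-coding genes.

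Thyroid hormone receptors bind 2 copies of the hexamer AGGTCA in direct repeat with 4 bases between them. The domains over the 10 starts held 4 matches with at least 11 of the 12 hexamer bases on either strand, in 3 of the genes, and 0 with all 12. They are shown because they are the closest matches to a receptor site in the chromatin over these starts, with the hexamer positions in capitals and the spacer in lower case.

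Thrsp: AGGTCAggttAGTTCA
Fasn: GGGTCAggccAGGTCA
Mlxipl, first match: AGGTCAgaagAGGGCA
Mlxipl, second match: AGGACAccgcAGGTCA

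The Thrsp match lay at chr7:104572444-104572459 on the minus strand, 6211 bp upstream of the start, and the Fasn match at chr11:120684389-120684404 on the minus strand, 1095 bp downstream of the start. Those of Mlxipl lay 10999 and 11800 bp downstream of its start on the minus strand, at chr5:135593753-135593768 and chr5:135594554-135594569. Of all 37200 domains 4.48% held such a match, as did 5.93% of the 22214 domains within the size range of these 10. Longer domains have more room for a match, and 9 of the 10 were among the longest 10% of all domains. Domains of matched length were not compared. Per 10 kb, all domains held 0.126 matches and the domains at the 10 starts 0.271. With 4 matches this is a description only.

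**Figure D5:**
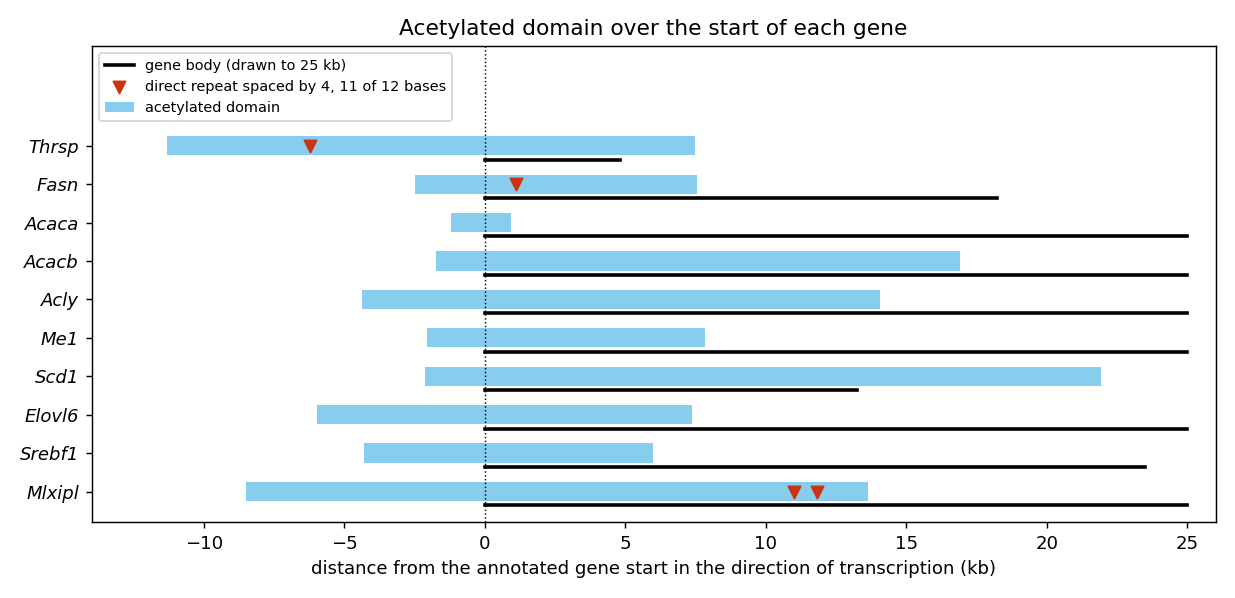
Acetylated domain over the annotated start of each gene, in kb from the start in the direction of transcription, with the gene body as a black line and matches to the direct repeat as triangles. The Scd1 and Thrsp domains cover the whole gene, and the Acaca domain is the shortest at 2124 bp.

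Promoter sequence, 250 bases before to 50 after the start, was found in RefSeq (GRCm38.p6) for 9 of the 10 genes, with 13 promoters in all. Each of the 13 occurs once and unchanged in mm9, and 11 lay in an acetylated domain. The direct repeat with at least 10 of 12 hexamer bases was in 0 of the 13, as against 3.02% of 32851 RefSeq promoters. CCAAT, the box bound by NF-Y, was in 8 of the 13 promoters, from 7 of the 9 genes, and in 37.4% of all promoters. CACGTG, the core bound by ChREBP with its partner Mlx and by USF, was in the upstream promoter of Mlxipl alone and in 7.15% of all promoters. The sterol regulatory element, bound by SREBP, with at least 8 of its 9 fixed bases was in Acly and in the downstream promoter of Mlxipl, and in 5.34% of all promoters. Both strands were searched, and a match says only that the letters are there.

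The promoters of Thrsp and Fasn, which had near equal log2 fold changes in the mutant, and the upstream promoter of Mlxipl are shown for their CCAAT and CACGTG letters, which are in capitals (ATTGG is CCAAT on the other strand).

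Thrsp, chr7:104566011-104566310, mm9, minus strand: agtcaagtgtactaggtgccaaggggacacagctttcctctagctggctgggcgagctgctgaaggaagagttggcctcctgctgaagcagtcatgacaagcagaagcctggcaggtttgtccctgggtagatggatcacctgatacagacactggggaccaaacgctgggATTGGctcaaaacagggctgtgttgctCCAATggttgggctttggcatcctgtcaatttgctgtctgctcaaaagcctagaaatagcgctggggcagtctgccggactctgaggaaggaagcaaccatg
Fasn, chr11:120685812-120686111, mm9, minus strand: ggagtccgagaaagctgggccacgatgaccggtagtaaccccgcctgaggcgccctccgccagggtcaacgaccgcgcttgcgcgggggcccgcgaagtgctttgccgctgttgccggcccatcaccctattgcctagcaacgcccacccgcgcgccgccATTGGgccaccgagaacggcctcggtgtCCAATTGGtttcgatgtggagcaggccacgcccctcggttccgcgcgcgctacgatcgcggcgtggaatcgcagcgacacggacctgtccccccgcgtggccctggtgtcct
Mlxipl, chr5:135565510-135565809, mm9, plus strand: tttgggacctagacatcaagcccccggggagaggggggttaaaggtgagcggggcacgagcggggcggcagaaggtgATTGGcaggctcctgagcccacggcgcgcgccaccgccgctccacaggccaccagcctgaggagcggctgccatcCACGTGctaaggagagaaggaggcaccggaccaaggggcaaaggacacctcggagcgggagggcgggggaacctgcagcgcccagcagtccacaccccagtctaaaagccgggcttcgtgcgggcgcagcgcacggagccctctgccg

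In Thrsp and in Fasn CCAAT stood on both strands within 100 bases of the start, and in Fasn a pair of them overlapped. The only promoter of Acacb in RefSeq (chr5:114615277-114615576) lay in no domain, although a domain covered its start annotated in GENCODE. The only one of Acaca (chr11:84008690-84008989) lay in a domain, but outside the one over its start annotated in GENCODE. So did the upstream Mlxipl promoter shown above, which lay in another domain. A promoter of Me1 (chr9:86581157-86581456) and a promoter of Srebf1 (chr11:60023924-60024223) lay outside too, while these 3 genes also had promoters inside. The starts used for these genes in these livers, and the domains that go with them, were not settled here.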

How the data were processed

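Per the labels and the study's methods, poly(A) RNA of each liver was sequenced, aligned by the authors to mm9 with STAR and quantified per RefSeq transcript with HOMER. The authors deposited RPKM, scaled to uniquely aligned reads. Versions and strand settings were not given in the sources used here. A separate deposited list holds the start and end positions of acetylated domains, which the authors called with HOMER (regions of 1000 bp joined over gaps of up to 2500 bp) from ChIP-seq of WT livers.

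A single nameless row among 31370 transcripts, 0.00079% of summed RPKM or less, was dropped, and 0 columns of libraries were unused. Each gene was represented by its first listed transcript. Each pair of groups was fitted on its own in R 4.3.3 with limma 3.58.1 after the transformation log2(RPKM + 0.1). The fit used a variance trend, and p-values were adjusted by Benjamini-Hochberg over every gene that reached 0.1 RPKM in 4 or more of the libraries fitted. The thresholds were taken from the study, whose fold limits are written for higher genes, and were applied here in both directions. A fold change on this scale understates that of low genes. Since libraries are not tied to separate litters or cages, p-values measure the spread between these samples. The procedure was tested on simulated data. Same-numbered libraries correlated between -0.207 and 0.267 in their deviations from group means, the highest for replicate 1 of hypothyroid WT and mutant mice. This gave no steady sign of pairing by number, but it cannot exclude a shared batch or litter.

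The 10 genes, the other gene lists and the tests were chosen with earlier results of these data known. Of the other lists, genes called were named, at most 4 per list, comparison and direction, by smallest adjusted p. Some genes of these lists are not reported here. Beside the lists described, 6 hepatocyte, 6 fat cell, 7 macrophage (5 in the table), 5 stellate, 5 endothelial, 4 bile duct and 4 lymphocyte genes served as cell markers. After T3, 1 marker each of stellate cells (Col3a1), endothelium (Lyve1), bile duct (Krt7) and lymphocytes (Ptprc) was called higher, as were 8.28% of tested genes. In the mutant 0 of the markers were called, where the report names those of other cells that differed at an unadjusted p under 0.05. Because the RNA table holds no coordinates, starts are the 5′ ends of GENCODE M1 gene records, with the start of any listed transcript as an alternative. The matches to the direct repeat in domains and the ratios between genes were added after values were seen. Other alternatives were the pseudocount, the filter, the samples fitted, the replicate block, the trend, the scaling, the threshold, the transcript and each library left out. Figures were drawn with matplotlib 3.10.9.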

Additional observations from a re-analysis of the deposited data

Results flagged for a closer look

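In 30 sets of 4 libraries (10 genes in 3 groups), 1 library stood so far from the others of its group that its gap passed Dixon's critical value in 3 cases. Chance alone marks about 1 set in 20 where values are normal and sets independent. The values here were RPKM without a log, and the same livers tended to be high or low across genes, so this rate is only a rough guide. Elovl6 in L-NCOR1ΔID replicate 1 was at 300.4 RPKM (gap 0.945 of the range), Acacb in hypothyroid WT replicate 1 was at 6.78 RPKM (0.91), and Mlxipl in hyperthyroid replicate 1 was at 193 RPKM (0.836). Without these libraries, the log2 fold change of Elovl6 in the mutant was 0.68 in place of 1.23. That of Acacb with T3 was 1.01 in place of 1.18 and lost its call (limma adjusted p = 0.0118), and that of Mlxipl with T3 was 1.02 in place of 1.12 and kept it.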

How the results depend on the processing

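Over 18 alternatives for each comparison, none of the 30 log2 fold changes (10 genes in 3 comparisons) changed sign. The filter, the fit of all 12 libraries, the replicate block, the variance trend and the p threshold cannot change a log2 fold change. They could change only calls, and the looser p threshold could only add them. With T3, Thrsp and Me1 were called under all 18, Mlxipl under 17 and Acacb under 12. In the mutant, Scd1 was called under 17 and Acacb under 8. In hyperthyroid against mutant mice, Me1 and Scd1 were called under all 18 and Acly, not called in the report, under 7. Where calls changed, the cause was not tested.

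With a pseudocount of 1, 894 genes in place of 1639 were called with T3 and 764 in place of 1195 in hyperthyroid against mutant mice. In the mutant, 601 genes in place of 175 were called at an adjusted p under 0.05, and between 67 (without hypothyroid WT replicate 2 or 4) and 187 (without mutant replicate 4) when 1 library was left out. The count also fell by over 1.5 times without hypothyroid WT replicate 1 (89) or 3 (68) and without mutant replicate 1 (97) or 3 (74). Of the 10 genes, 1 in place of 2 was called in the mutant with no filter or no variance trend, and 1 to 2 when 1 library was left out. In hyperthyroid against mutant mice 4 in place of 2 were called with all 12 libraries in 1 fit, 5 at an adjusted p under 0.05 and 2 to 3 when 1 library was left out. With T3 these were 3 to 4, and 1430 to 1583 genes, and in hyperthyroid against mutant mice 891 to 1183 genes.

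With the replicate block, 45 genes and 0 of the 10 were called in the mutant, where the limma adjusted p of Scd1 was 0.0111 and that of Acacb 0.0493. With T3 the block called 3 of the 10, without Acacb (limma adjusted p = 0.0202). The labels do not say that the numbers pair these libraries, and the correlations could not decide it, so the block is given only here. Counting the start of any transcript also gave all 10 genes, which could not come out lower, since a gene's start is itself a transcript start. Of the listed transcript starts, 1 of 3 lay in a domain for Fasn, 1 of 2 for Me1 and 2 of 5 for Acacb. It was 6 of 9 for Acly, 7 of 9 for Mlxipl, 13 of 14 for Srebf1 and every one for Thrsp, Acaca, Scd1 and Elovl6. The median number of domains near the 10 starts was 5 within 50 kb and 21 within 200 kb. The direct repeat was in 0 promoters at 11 of 12 bases, which follows from 0 at 10 of 12. The 4 libraries per group and the wide spread of these genes limit what could be called.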

Other observations

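Acss2, which makes acetyl-CoA from acetate and was not called in any comparison, had 69.8, 79.9, 95.3 and 80.5 RPKM in hypothyroid WT livers, 141, 52.3, 51.8 and 117 in hyperthyroid livers and 146, 112, 161 and 198 in L-NCOR1ΔID livers. Hyperthyroid replicates 2 and 3 were below the hypothyroid WT range and replicates 1 and 4 above it, and all mutant livers were above it. This gene was chosen after its values were seen. Mogat1, a monoacylglycerol acyltransferase, was at 2.19 RPKM in mutant replicate 1, the liver with the highest Elovl6 level, and between 0.021 and 0.197 in the other mutant livers.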
